A study of Homo sapiens with 12 samples.

Results

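The genes described here encode 10 proteins of innate immunity that detect foreign or misplaced nucleic acids or relay that detection, and they were taken as a named list of 10 of the 58735 genes in the count table. The list held the RNA helicases DDX58 (RIG-I), IFIH1 (MDA5) and DHX58 (LGP2), the RNA-activated kinase EIF2AK2 (PKR), the RNA receptor TLR3, the Z-form nucleic acid sensor ZBP1, the DNA sensors AIM2 and IFI16, and the adaptors MAVS and TMEM173 (STING). TLR3 sits in endosomes rather than the cytosol, and MAVS and TMEM173 pass signals on, although STING also binds cyclic dinucleotides directly. The genes were taken by name, not by a threshold on expression, but earlier results of these data were known when they were chosen.

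RIG-I and MDA5 bind viral or otherwise unusual double-stranded RNA in the cytosol and then act through MAVS on mitochondria, which leads to type I interferon production. LGP2 lacks the signalling domains of the other two and modulates them, while PKR halts translation when it binds double-stranded RNA. AIM2 assembles an inflammasome on cytosolic DNA, and IFI16 binds DNA and acts with STING. Interferon itself raises the transcription of many of these genes in macrophages, by way of response elements in their promoters.

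RNA was sequenced from tumor-associated macrophages (TAMs), here THP-1 cells (a human monocytic leukemia line) turned into macrophages with PMA and cultured across a porous membrane from AsPC-1 cells, a human pancreatic cancer line. The question was how MMP28, a matrix metalloproteinase made by the cancer cells, and the IL-8 and VEGFA they secrete affect TAMs. Each of the 4 groups held 3 libraries. The control group, labelled only NC, was taken to be the paper's control coculture, in which the AsPC-1 cells carried the vector. In the OE-MMP28 group the AsPC-1 cells stably overexpressed MMP28 from a lentiviral vector. In the anti-IL-8 and the anti-VEGFA group the OE-MMP28 coculture also received the named neutralizing antibody. All groups thus shared THP-1 cells, PMA and AsPC-1 cells, no group was named for a control antibody, and no antibody group was cocultured with vector-carrying AsPC-1 cells. The TAMs and the cancer cells each came from a single established line. Nothing in the labels says that replicates came from separate cultures, so the p-values measure the spread between these libraries, which may be technical.

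Library totals lay between 15852346 and 18701195 counts, and mitochondrial genes took 6.92% to 17.8% of them. MMP28 had 0 counts in all 12 TAM libraries. Of 10 macrophage markers, 9 were well enough expressed to be tested and CD68 had 0 to 5 counts. The summed level of the 10 was 2422 to 2712 CPM (counts relative to the library total, scaled between libraries by TMM) in control, 2622 to 3990 in OE-MMP28, 3466 to 4139 in the anti-IL-8 group and 3360 to 3688 in the anti-VEGFA group. Of the 10, CD14 and FCGR2A were higher in OE-MMP28 than in control (log2 fold changes 0.80 and 0.44, edgeR adjusted p 0.0272 and 0.0495), against 0.523% of all tested genes that were. Among 10 epithelial markers EPCAM and KRT17 were at 0 in every library, and only 2 of the 10 were well enough expressed to be tested. Of these 2, MUC1 was lower in OE-MMP28 than in control (log2 fold change -1.01, edgeR adjusted p 0.0341), against 2.64% of all tested genes that were. The epithelial list summed to 4.56 to 5.80 CPM in control, 2.64 to 3.50 in OE-MMP28, 3.50 to 4.96 in the anti-IL-8 group and 4.57 to 4.64 in the anti-VEGFA group. The part of these differences in the results below was not tested.

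RefSeq promoter windows (assembly GRCh38.p14, ending shortly after each gene's start) were on hand for 7 of the 10 genes, and not for DHX58, ZBP1 and TMEM173. They were searched on both strands for GAAANNGAA, the core of the interferon-stimulated response element (ISRE), and for TTCNNNGAA, the site of STAT dimers (GAS). The ISRE core was present in 4 of the 7 windows, those of IFIH1, TLR3, AIM2 and EIF2AK2, compared with 8.11% of 35116 promoters of the same length. The GAS letters were present in 1 of the 7, that of TLR3, compared with 7.66%. The sequences below are those of the 2 helicases with a window, of EIF2AK2, which was added after its match was seen, and of MAVS, whose expression moved least. They run 5′ to 3′ along the gene, and capitals mark the ISRE core on either strand. The window of DDX58 (RIGI in RefSeq) is chr9:32526147-32526446, minus strand, that of IFIH1 chr2:162318635-162318934, minus strand, that of EIF2AK2 chr2:37156931-37157230, minus strand, and that of MAVS chr20:3846584-3846883, plus strand.
DDX58: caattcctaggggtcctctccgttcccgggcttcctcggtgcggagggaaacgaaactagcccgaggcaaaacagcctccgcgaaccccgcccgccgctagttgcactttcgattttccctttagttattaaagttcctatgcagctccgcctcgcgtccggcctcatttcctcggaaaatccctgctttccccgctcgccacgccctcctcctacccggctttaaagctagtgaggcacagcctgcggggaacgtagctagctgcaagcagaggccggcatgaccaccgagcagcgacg
IFIH1: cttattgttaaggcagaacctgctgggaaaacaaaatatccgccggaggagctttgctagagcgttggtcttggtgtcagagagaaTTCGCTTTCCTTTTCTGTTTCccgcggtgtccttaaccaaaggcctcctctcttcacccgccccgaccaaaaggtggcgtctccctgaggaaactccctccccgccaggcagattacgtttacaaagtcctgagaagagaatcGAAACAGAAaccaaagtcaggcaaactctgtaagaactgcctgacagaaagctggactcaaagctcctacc
EIF2AK2: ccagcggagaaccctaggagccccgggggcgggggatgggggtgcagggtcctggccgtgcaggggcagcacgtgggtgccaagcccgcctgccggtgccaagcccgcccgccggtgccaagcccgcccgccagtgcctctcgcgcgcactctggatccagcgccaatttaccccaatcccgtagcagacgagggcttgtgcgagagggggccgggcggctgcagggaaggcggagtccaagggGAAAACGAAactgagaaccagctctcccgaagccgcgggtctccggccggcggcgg
MAVS: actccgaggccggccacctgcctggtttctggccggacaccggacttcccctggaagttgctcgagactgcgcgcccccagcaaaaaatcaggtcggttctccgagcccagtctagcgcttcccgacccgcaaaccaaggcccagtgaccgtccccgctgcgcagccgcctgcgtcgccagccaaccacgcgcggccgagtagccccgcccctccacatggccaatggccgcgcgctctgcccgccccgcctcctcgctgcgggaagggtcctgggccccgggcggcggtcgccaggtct
In IFIH1 the long capital run holds 3 overlapping reverse-strand matches that begin at -164, -158 and -152, and a forward match begins at -21. EIF2AK2 had its match at -6, TLR3 at -3 and AIM2 at -189. DDX58, IFI16 and MAVS held neither set of letters in these windows. Other forms of these elements, such as ones with different spacing, were not searched for, so their absence was not shown. The windows of AIM2 and IFI16 start at RefSeq starts that lie 70330 and 9023 bases from the gene starts used for counting, so they may not be the promoters in use here.

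Compared with the control group, OE-MMP28 TAMs had lower mRNA of 6 of the 10 genes, namely DDX58, AIM2, EIF2AK2, DHX58, IFIH1 and IFI16. The falls ranged from 7.44-fold for DDX58 to 2.57-fold for IFI16. The adaptors MAVS and TMEM173 did not pass the test, and TLR3 and ZBP1 were too scarce to test. Over all 16046 genes that passed the filter on low counts, 2.64% were lower at the same threshold (edgeR quasi-likelihood test, Benjamini-Hochberg adjusted p under 0.05). In all 6 genes each OE-MMP28 library lay below each control library, which held for 11.6% of all tested genes. The 8 genes tested had at least 64 counts in every library. In bulk libraries, fewer cells of a type and less RNA per cell cannot be told apart.

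**Figure D1:**
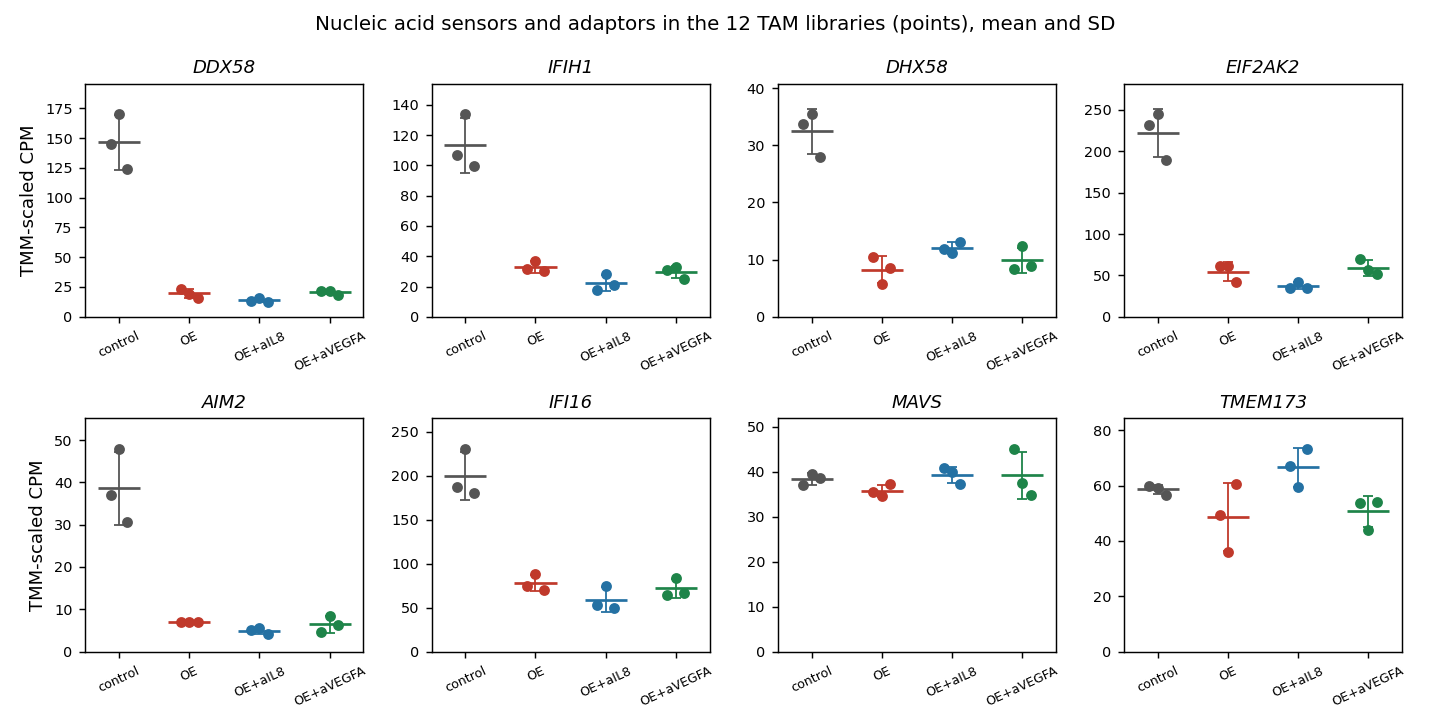
TMM-scaled CPM (linear axes from 0) of the 8 tested genes in the 12 libraries, with OE for OE-MMP28 and aIL8 and aVEGFA for the 2 antibodies; points are libraries, horizontal bars group means and error bars SD (3 libraries per group). DDX58, IFIH1, DHX58, EIF2AK2, AIM2 and IFI16 are lower in all 9 libraries of the OE-MMP28 groups than in control, whereas MAVS stays between 34.5 and 45.1 CPM in all libraries.

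DDX58 (chr9:32455705-32526324, minus strand), the helicase that recognizes short double-stranded RNA with a triphosphate end, had 145, 170 and 124 CPM in the control libraries, in replicate order. It had 23.4, 19.5 and 16.1 CPM in OE-MMP28. The lowest control library was thus far above the highest OE-MMP28 library. The means were 146 ± 23.0 and 19.6 ± 3.63 CPM (SD, n = 3 each), a log2 fold change of -2.90 (SE 0.16, edgeR adjusted p 1.51e-09).

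IFIH1 (chr2:162267079-162318703, minus strand), the helicase for long double-stranded RNA, measured 107, 134 and 99.4 CPM in control and 31.4, 37.1 and 30.0 CPM in OE-MMP28. Again the groups were well apart, but the fall was smaller than that of DDX58. Its log2 fold change was -1.79 (SE 0.17, edgeR adjusted p 1.36e-06). DHX58 (chr17:42101404-42112733, minus strand), the helicase without signalling domains, was the scarcest of the trio, with 33.8, 35.5 and 28.0 CPM in control and 10.4, 5.73 and 8.55 CPM in OE-MMP28. OE-MMP28 replicate 2 was the low library here, while replicate 3 was the lowest for DDX58 and IFIH1. The log2 fold change of DHX58 was -1.98 (SE 0.20, edgeR adjusted p 2.88e-06).

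EIF2AK2 (chr2:37099210-37157065, minus strand), the kinase that phosphorylates the translation factor eIF2-alpha, had the highest mean CPM of the list in control, with 231, 245 and 190 CPM by library. In OE-MMP28 it had 60.9, 61.7 and 41.5 CPM, so replicate 3 was lowest in both groups. The log2 fold change was -2.02 (SE 0.17, edgeR adjusted p 2.21e-07). EIF2AK2 shares 35 exon bases (0.33% of its exons) with GPATCH11 and 401 (3.73%) with a pseudogene that had at most 1 count, both on the opposite strand. The other 9 genes share no exon bases with another gene.

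The 2 DNA sensors of the list are neighbours in the PYHIN gene cluster on chromosome 1, on opposite strands and 7.3 kb apart. AIM2 (chr1:159062484-159147096, minus strand) had 37.0, 47.9 and 30.7 CPM in control. In OE-MMP28 it had 6.98, 6.96 and 6.99 CPM, the tightest group of values in the list, at 112 to 127 counts per library. The log2 fold change of AIM2 was -2.47 (SE 0.20, edgeR adjusted p 2.04e-07).

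IFI16 (chr1:158999968-159055155, plus strand) had 188, 231 and 181 CPM in control and 74.3, 88.4 and 70.6 CPM in OE-MMP28. It kept the largest share of its control level among the 6 falling genes, 38.9% on the fitted scale. Its log2 fold change was -1.36 (SE 0.17, edgeR adjusted p 3.11e-05). The cluster spans 316 kb and holds 2 more genes of this family, of which MNDA also fell (log2 fold change -1.64, SE 0.21, edgeR adjusted p 7.25e-05) and PYHIN1 had only 1 to 12 counts.

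MAVS (chr20:3846799-3876123, plus strand), the mitochondrial adaptor of RIG-I and MDA5, measured 37.0, 39.5 and 38.5 CPM in control and 35.6, 34.5 and 37.2 CPM in OE-MMP28. The groups overlapped, with a log2 fold change of -0.10 (95% interval -0.36 to 0.16, edgeR adjusted p 0.775). TMEM173 (chr5:139475534-139482935, minus strand), the adaptor of the DNA-sensing arm, measured 59.9, 59.3 and 56.7 CPM in control and 49.3, 36.0 and 60.6 CPM in OE-MMP28. Its OE-MMP28 libraries were the more scattered, and replicate 3 exceeded every control library. The log2 fold change was -0.27 (95% interval -0.60 to 0.06, edgeR adjusted p 0.478). Both intervals lie above the falls of all 6 genes that passed the test.

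TLR3 (chr4:186069152-186088069, plus strand) had 3, 4 and 7 counts in control, 1, 2 and 0 in OE-MMP28, 0, 0 and 1 under anti-IL-8, and 0, 0 and 0 under anti-VEGFA. ZBP1 (chr20:57603846-57620576, minus strand), which triggers necroptosis through RIPK3, had 2, 2 and 4 counts in control, 2, 3 and 0 in OE-MMP28, 1, 0 and 0 under anti-IL-8, and 2, 0 and 0 under anti-VEGFA. Nearly all of these values were at or under 3 counts, the upper limit that a count of 0 allows, which is 0.160 to 0.195 CPM in these libraries and covers counting error only. Each TLR3 value outside control lay below each control value. Among tested genes such a separation was found in 11.6% for OE-MMP28, 24.4% for anti-IL-8 and 17.4% for anti-VEGFA. The main fit took no fold change for either gene, and at this depth a difference was not established.

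**Figure D2:**
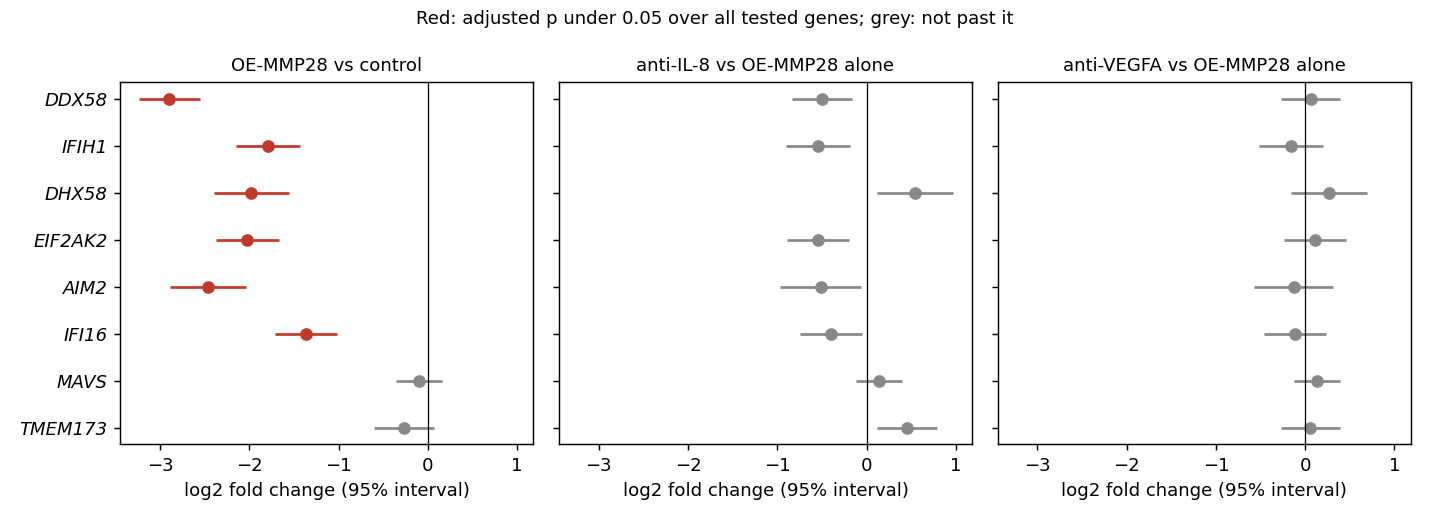
Log2 fold change (points) and 95% interval (bars) of the 8 tested genes for OE-MMP28 against control and for each antibody group against OE-MMP28 alone; red marks an adjusted p under 0.05. Of the 3 comparisons the first has red points, from -2.90 for DDX58 to -1.36 for IFI16, and the DHX58 and TMEM173 points lie right of 0 with anti-IL-8 while 5 sensors lie left of it.

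Because the genes fell by unequal amounts, their order changed. The FPKM scale divides by the length of all annotated exons, from 2009 bases for AIM2 to 11771 for MAVS. The order of genes, and whether a ratio of 2 genes exceeds 1, depend on that length, which may not be that of the transcripts in use. On this scale control TAMs had 37.3 ± 5.14 for IFI16 and 33.2 ± 5.33 for DDX58. They were followed by IFIH1 at 21.9 ± 3.58, EIF2AK2 at 20.4 ± 2.73 and AIM2 at 18.9 ± 4.34. Next came TMEM173 at 15.0 ± 0.516, DHX58 at 8.33 ± 1.04 and MAVS at 3.21 ± 0.102 (SD, n = 3). IFI16 and DDX58 overlapped in this order, as did each neighbouring pair from IFIH1 down to TMEM173. In OE-MMP28, IFI16 (14.5 ± 1.75 FPKM) and TMEM173 (12.5 ± 3.14 FPKM) stood above the rest and overlapped each other. DDX58, second in control, came well down the order at 4.46 ± 0.837 FPKM, below IFIH1 at 6.36 ± 0.734 and overlapping EIF2AK2 at 5.03 ± 1.06. With anti-IL-8, TMEM173 ranked first at 17.2 ± 1.99 FPKM, without overlap with IFI16 at 11.1 ± 2.51.

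Ratios within a library show the unequal falls of the 3 helicases directly; the pairs were chosen after their values were seen. DDX58 over IFIH1, on the FPKM scale, was 1.59, 1.49 and 1.47 in the control libraries and 0.872, 0.615 and 0.631 in OE-MMP28. It was above 1 in each control library and below 1 in each of the other 9. DHX58 over DDX58 was 0.265, 0.236 and 0.255 in the control libraries and 0.504, 0.333 and 0.602 in OE-MMP28. Under anti-IL-8 it was 1.00, 0.796 and 1.18, above every OE-MMP28 library, and with anti-VEGFA it was 0.446, 0.657 and 0.537, among the OE-MMP28 values. The log2 ratio of DHX58 to DDX58 differed by 0.89 between OE-MMP28 and control and by 1.07 between anti-IL-8 and OE-MMP28. Each gave a p of 0.10 in a two-sided exact permutation test, the smallest that 3 against 3 libraries can give, so neither can pass 0.05. In the same test DHX58 over DDX58 gave a p of 0.60 for anti-VEGFA against OE-MMP28. DDX58 over IFIH1 gave 0.10 for OE-MMP28 against control, and 0.50 and 0.30 for anti-IL-8 and anti-VEGFA against OE-MMP28. The adaptor MAVS stood at 0.0859 to 0.115 of the FPKM of DDX58 in control and at 0.563 to 0.854 in OE-MMP28.

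**Figure D3:**
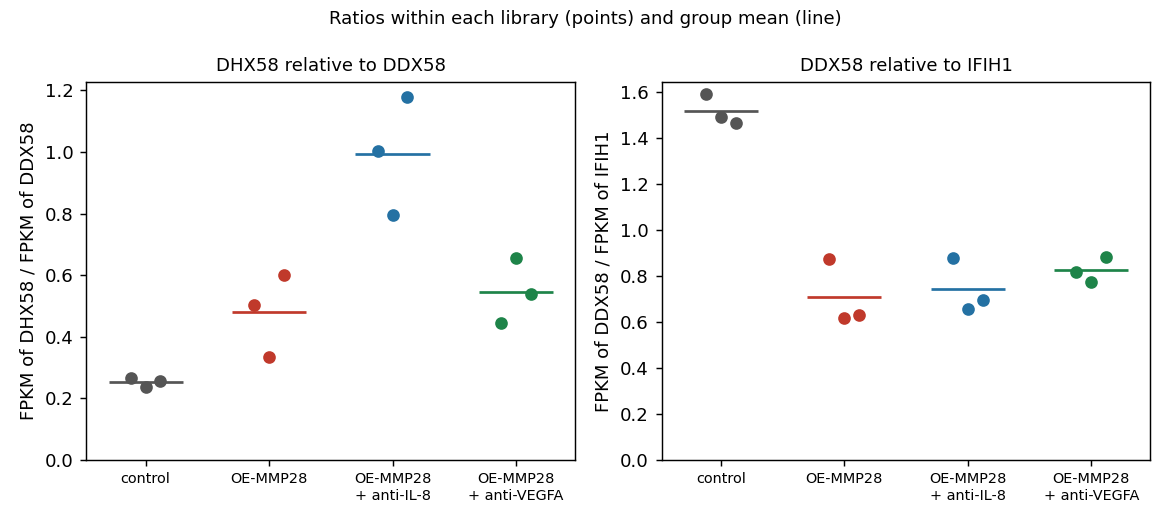
FPKM of DHX58 divided by that of DDX58 (left) and of DDX58 divided by that of IFIH1 (right) in each library, by group; points are libraries and lines group means, on linear axes from 0. On the left the anti-IL-8 libraries, at 0.796 to 1.18, lie above all others, and on the right the control libraries, at 1.47 to 1.59, do.

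The antibody groups ask whether blocking IL-8 or VEGFA changes these genes in the presence of OE-MMP28 cancer cells. In both antibody groups every library of the 6 falling genes lay below every control library, a separation found in 24.4% of all genes with anti-IL-8 and in 17.4% with anti-VEGFA. With anti-IL-8 none of the 8 tested genes differed from OE-MMP28 at the adjusted threshold in edgeR, nor did any of the 16046 genes (0%; smallest adjusted p 0.0627). At an unadjusted p under 0.05, 5 of the 8 were lower, compared with 15.9% of all genes, and 2 were higher, compared with 13.4%. DESeq2 gave 4 of the 8 at its adjusted threshold (DDX58, IFIH1 and EIF2AK2 lower, TMEM173 higher) and 13.2% of all genes, and limma voom gave 0 and 0%. Without OE-MMP28 replicate 3, edgeR also gave 4, the same genes as DESeq2, and 25% of all genes, so leaving out this library moved calls across the whole table.

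The lower values with anti-IL-8 were 13.5, 15.8 and 12.6 CPM for DDX58, a log2 fold change of -0.50 against OE-MMP28 (SE 0.16, edgeR adjusted p 0.0724). IFIH1 had 18.0, 28.2 and 21.3 CPM (-0.55, SE 0.17, edgeR adjusted p 0.0695), and AIM2 had 5.02, 5.46 and 4.15 CPM (-0.51, SE 0.22, edgeR adjusted p 0.129). In these 3 genes every anti-IL-8 library lay below every OE-MMP28 library, as in 15.3% of all genes. EIF2AK2, at 35.1, 42.6 and 35.2 CPM (-0.54, SE 0.17, edgeR adjusted p 0.0669), and IFI16, at 52.8, 75.0 and 49.2 CPM (-0.40, SE 0.16, edgeR adjusted p 0.124), overlapped with OE-MMP28.

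DHX58 stood apart from the other helicases in sign. With anti-IL-8 it had 11.9, 11.1 and 13.1 CPM, each above the OE-MMP28 libraries, a log2 fold change of 0.55 (SE 0.20, edgeR adjusted p 0.0943). MAVS, at 40.8, 39.9 and 37.2 CPM, also lay above OE-MMP28 throughout, although its lowest library exceeded the highest OE-MMP28 library by a hair, and its log2 fold change was 0.14 (SE 0.12, edgeR adjusted p 0.477). Such a complete separation upward was found in 13.7% of all genes. TMEM173, at 67.1, 59.4 and 73.3 CPM, overlapped with OE-MMP28 (log2 fold change 0.45, SE 0.16, edgeR adjusted p 0.0837).

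With anti-VEGFA, 0 of the 8 tested genes differed from OE-MMP28 in edgeR, at the adjusted threshold (0.343% of all genes) or at the unadjusted one (18.8% of all genes), and DESeq2 gave 0 as well (2.67% of all genes). DDX58 had 21.4, 21.5 and 18.7 CPM, within the OE-MMP28 range, with a log2 fold change of 0.06 (95% interval -0.27 to 0.39). The fold changes of the other 7 lay between -0.16 for IFIH1 and 0.26 for DHX58. The widest interval was that of AIM2, -0.57 to 0.32, and that of DHX58 reached highest, -0.16 to 0.69. Changes within each gene's own interval remain compatible with these values.

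Set against control, both antibody groups had the same 6 genes lower as OE-MMP28 alone; these comparisons share the control libraries. With anti-IL-8, 6 of the 8 were lower, compared with 10.9% of all genes, and with anti-VEGFA also 6, compared with 5.37%. The log2 fold change of DDX58 was -3.39 for anti-IL-8 and -2.83 for anti-VEGFA, that of AIM2 -2.98 and -2.59, that of EIF2AK2 -2.56 and -1.91, that of IFIH1 -2.33 and -1.95, and that of IFI16 -1.76 and -1.47. For DHX58 it was -1.43 and -1.71, so by these estimates it alone among the 6 was farther from control with anti-VEGFA than with anti-IL-8. MAVS (0.04 and 0.03) and TMEM173 (0.18 and -0.21) did not pass the test in either group, although all 3 anti-VEGFA libraries of TMEM173, at 53.8, 44.0 and 54.1 CPM, were below the control libraries, as in 17.4% of all genes.

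Tested directly, anti-VEGFA against anti-IL-8, none of the 8 passed the adjusted threshold in edgeR (0.199% of all genes did), and DESeq2 called EIF2AK2 (1.53% of all genes). At an unadjusted p under 0.05, EIF2AK2 (log2 fold change 0.65, edgeR adjusted p 0.10), DDX58 (0.56, 0.139) and IFIH1 (0.39, 0.31) were higher with anti-VEGFA, compared with 9.39% of all genes. TMEM173 was lower (-0.39, 0.264), compared with 5.62%. DHX58 (-0.28, 0.513) did not pass the unadjusted threshold, so its order between the antibodies was not established. EIF2AK2 also passed the adjusted threshold in edgeR without OE-MMP28 replicate 3 (adjusted p 0.0415) and without the filter on low counts (0.00635), so its call depends on the setting.

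The order of the libraries within a group was compared for the 6 falling genes after their values were seen, as a description with no test. Control replicate 2 was the highest of its group for 6 of 6 (32.2% of all tested genes) and replicate 3 the lowest for 6 of 6 (37.1%). With either antibody replicate 2 was the highest for 5 of 6 (37.2% of all genes for anti-IL-8 and 38.1% for anti-VEGFA), and OE-MMP28 replicate 3 was the lowest for 4 of 6 (38.5%). The highest OE-MMP28 library and the lowest library of each antibody group were shared by no more than 3 of the 6.

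To find the genes that most resembled DDX58, log2 CPM was centred on the control mean, and the root mean square difference from DDX58 over the 12 libraries was taken for 13073 protein-coding genes. The nearest was GBP1, an interferon-induced GTPase, at 0.21, which went from 36.5 CPM in control to 4.55 in OE-MMP28. It was followed by SAMD9L, an antiviral restriction factor, at 0.26, by the double-stranded RNA-dependent synthetases OAS2 at 0.28 and OAS3 at 0.29, and by TNFSF13B, the B-cell activating cytokine BAFF, at 0.29. Of the listed genes AIM2 was closest, at 0.41 and rank 15, ahead of EIF2AK2 at 0.75 (rank 40), IFIH1 at 0.89 (rank 53), DHX58 at 1.23 (rank 71) and IFI16 at 1.31 (rank 81). TMEM173 and MAVS, at 2.57 and 2.63, ranked 5172 and 6177. This is a description of the same libraries and carries no test.

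The wider pathway was read from 4 lists, whose counts stand beside the 2.64% of all tested genes that were lower in OE-MMP28 than in control. Of 24 tested genes of other nucleic acid sensors, 6 were lower in OE-MMP28 than in control and 0 higher, with a list median log2 fold change of 0.01, compared with 0.02 over all genes. The largest falls were in SAMD9L (-2.65, SE 0.21, edgeR adjusted p 9.27e-08), in SAMD9, its paralog (-2.49, SE 0.21, 3.1e-07), in PARP9, an ADP-ribosyltransferase that also binds viral RNA (-2.45, SE 0.18, 3.96e-08), and in MNDA of the PYHIN cluster. CGAS, the DNA sensor that makes the ligand of STING, was named after its values were seen and did not pass the test (0.09, SE 0.14, 0.839).

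Among 22 tested adaptors, kinases and transcription factors, 2 were lower and 0 higher (list median -0.14). These were IRF7, the interferon-induced factor that drives interferon alpha genes (log2 fold change -1.65, SE 0.20, edgeR adjusted p 2.19e-05), and MYD88, the adaptor of most Toll-like receptors (-1.08, SE 0.12, 1.17e-05). The kinase TBK1 and the factor IRF3, which act directly below MAVS and STING and were likewise named after their values were seen, had log2 fold changes of 0.05 and 0.10 (edgeR adjusted p 0.92 and 0.856). None of MAVS, TMEM173, TBK1 and IRF3, which relay the signal of the sensors, passed the test. Only 3.16% of all tested genes passed it in either direction, so not passing was the usual outcome.

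Of 24 tested regulators 8 were lower and 0 higher (list median -0.18). USP18, which removes ISG15 and restrains interferon receptor signalling, fell most (log2 fold change -2.89, SE 0.20, edgeR adjusted p 1.69e-08), followed by TRIM21, a cytosolic antibody receptor (-1.40, SE 0.15, 6.96e-06), SAMHD1, which hydrolyses nucleotides (-1.27, SE 0.14, 1.12e-05), and TRIM25, a ubiquitin ligase of the RIG-I pathway (-0.91, SE 0.14, 0.00057). Of 14 effector partners 3 were lower and 0 higher (list median -0.05). MLKL and RIPK3, which carry out necroptosis below ZBP1, had log2 fold changes of -1.21 and -0.87 (edgeR adjusted p 5.2e-05 and 0.0263), and CASP1, the protease of the AIM2 inflammasome, of -0.55 (0.0157). In none of the 4 lists did a gene pass the adjusted threshold with either antibody against OE-MMP28 alone in edgeR. Over all tested genes, 0% passed it for anti-IL-8, so no list could hold one, and 0.343% did for anti-VEGFA. The absence of calls is therefore not a result about these lists. DESeq2 called 13.2% of all genes for anti-IL-8 and 2.67% for anti-VEGFA, and its calls within the lists are not given here.

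**Figure D4:**
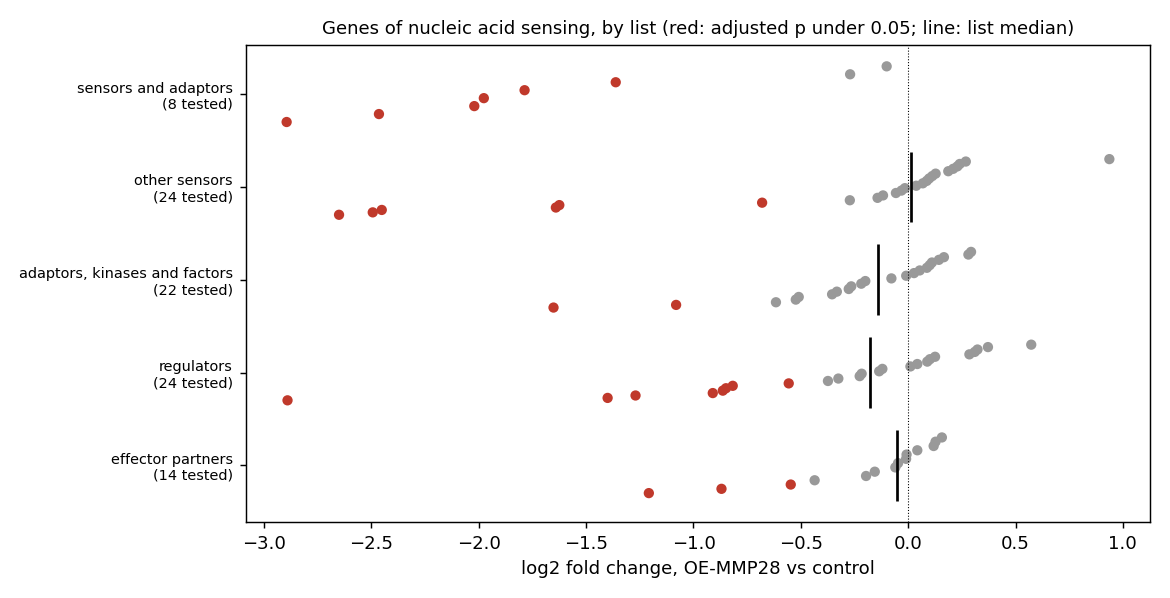
Log2 fold change of OE-MMP28 against control for the 8 tested sensors and adaptors and for the tested genes of the 4 pathway lists; each point is a gene, red marks an adjusted p under 0.05, vertical lines are list medians and the vertical spread within a row only separates points. The list medians, -0.18 to 0.01, lie near 0 while 19 red points of the lists lie to the left, and none to the right.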

How the data were processed

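RNA-seq libraries of TAMs in 4 groups of 3 were grouped by their labels. The authors deposited read counts per gene, made with HISAT2 2.0.5 and featureCounts 1.5.0-p3 per the submitters' processing notes, and whether counting used strand is not given in the sources used here. FPKM, also deposited by the authors, equal counts divided by exon length and by a total for each library. The authors' comparison columns (group means, fold changes on the log2 scale, raw and adjusted p-values) were not used. The genome build is not stated, and the coordinates of all 58735 genes equal those of GENCODE 29 (GRCh38).

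Counts were analysed in R 4.3.3 with edgeR 4.0.16. filterByExpr kept 16046 genes, libraries were scaled by TMM, and 1 quasi-likelihood fit with a coefficient per group gave each comparison, adjusted by Benjamini-Hochberg over all genes tested. The SE was taken from the fold change and its F statistic. The genes, lists and tests were chosen with earlier results of these data known. All 10 genes were named, and from each list at most the 4 largest changes past the adjusted threshold without overlap of libraries. Nearest genes were the 5 with the smallest distance to DDX58. Ratios were compared by exact permutation.

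The 3 libraries of a group differed by more than sampling noise (chi-square per degree of freedom 7.93 to 131), so all were counted. Precision was limited by 3 libraries per group, and the 95% intervals come from the fit. Alternatives were DESeq2 1.42.0, limma 3.58.1 (voom, and log2 of FPKM plus 1 or 0.1), library totals, other filters, fits of 2 groups, a replicate block, each library left out and an unadjusted threshold. Plots were made with matplotlib 3.10.9 and pandas 2.3.3 (Python 3.11.15).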

Additional observations from a re-analysis of the deposited data

How the results depend on the processing

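In the comparisons of OE-MMP28, of anti-IL-8 and of anti-VEGFA with control, the count of genes called lower was 6 under every one of the 22 alternative settings, including the 12 that leave out 1 library, and each of the 176 fold changes per comparison stayed on its side of the threshold. The log2 fold change of DDX58 in OE-MMP28 against control ranged from -3.04 to -2.65. The anti-IL-8 comparison with OE-MMP28 depended on the setting. Against 0 genes called (0% of all genes), DESeq2 gave 4 (13.2% of all genes), no filter on low counts 3 (DDX58, IFIH1 and EIF2AK2; 4.18%), the unadjusted threshold 7 (29.3%), and leaving out a library 0 to 4, with 4 only without OE-MMP28 replicate 3 (25%). Between the antibodies, against 0 genes called (0.199% of all genes), DESeq2 and no filter each gave 1 (EIF2AK2; 1.53% and 0.804%), the unadjusted threshold 4 (15%), and leaving out a library 0 to 1, again without OE-MMP28 replicate 3 (0.587%). The cause was not tested. Over all tested genes, deviations of same-numbered libraries of different groups correlated at -0.16 to 0.237 (median 0.0023), with 4 of 18 pairs over 0.1. Differently numbered libraries correlated at -0.323 to 0.336 (median -0.0128), with 9 of 36 pairs over 0.1. The labels do not say whether libraries with the same replicate number were handled together, and this was not tested. With the replicate block, 4 genes (DDX58, IFIH1, EIF2AK2 and IFI16) were called lower with anti-IL-8 against OE-MMP28, beside 4.95% of all genes, and the count changed in no other comparison. No fold change that passed the test changed sign under any setting. Depth limited TLR3 and ZBP1, which could not be tested after the filter on low counts.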
